A study of Mus musculus with 6 samples.

Results

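The genes described here are 10 of the genes carried by the mouse mitochondrial genome, chosen by name from 40879 gene symbols in each library. They are 8 protein genes (ND1, ND2, ND4, ND5, ND6, CYTB, COX1 and COX3) and the 2 ribosomal RNA genes mt-Rnr1 and mt-Rnr2. The libraries are labelled as primary hepatic stellate cells of wild-type male mice, and all of the cells were cultured for 24 h, but liver endothelial markers far exceeded stellate ones in each of them. In 3 libraries the cells had received APB-R3, which is an interleukin-18 binding protein modified by engineering, and in the other 3 they had received vehicle. The dose is labelled as 150, with a unit that differs between the series text and the sample protocol (per ml in one and per kg in the other). Hepatic stellate cells store retinoids around the liver sinusoids, and interleukin-18 binding protein is a secreted protein that captures interleukin-18.

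Mitochondria keep a small circular genome that encodes core subunits of the respiratory chain together with the rRNAs and tRNAs needed to translate them. Both strands are copied as long precursors by a dedicated polymerase, POLRMT, with the factors TFAM and TFB2M. The precursors are cut mostly at the tRNAs that lie between the genes, and most of the mRNAs then receive a poly(A) tail. ND6 is the protein gene read from the opposite strand. The libraries were made with a 3' end kit, Lexogen QuantSeq, primed on poly(A). A transcript is thus read near its poly(A) tail or at an internal run of A. The tail need not lie at the annotated end of each gene.

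COX3, which encodes a core subunit of complex IV, had 0 counts in all 6 libraries. With 60703376 counts in all, 3 counts correspond to 0.0494 CPM (counts scaled to the library total), which is the upper limit that 0 allows for counting error alone. Between COX1 and ND4 on the mitochondrial genome lie 11 genes, and 10 of these were at 0. COX2, ATP8, ATP6, COX3 and ND4L are the 5 protein genes among them. The exception was ND3, a small complex I subunit, with 29 counts over the 6 libraries. Of the other 26 mitochondrial genes, 3 were at 0, all of them tRNA genes.

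The letters of COX3 also occur in the nuclear genome. In GENCODE M21 (GRCm38), bases 1 to 783 of the 784 bases of COX3 are identical to Gm28437, an unprocessed pseudogene on chromosome 1. The sequences below are the last 60 bases of 7 genes, at the annotated 3' end, from the GENCODE M21 transcripts. Capitals mark letters shared with Gm28437, and sequences in lower case hold no stretch of 50 bases found in another annotated transcript.
COX3: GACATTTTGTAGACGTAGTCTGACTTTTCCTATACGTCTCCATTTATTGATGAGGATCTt
ND4: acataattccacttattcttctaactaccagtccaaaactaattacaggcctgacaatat
ND1: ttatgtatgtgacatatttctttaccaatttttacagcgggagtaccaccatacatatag
ND2: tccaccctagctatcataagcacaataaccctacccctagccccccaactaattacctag
CYTB: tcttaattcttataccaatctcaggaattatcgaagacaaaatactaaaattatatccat
mt-Rnr1: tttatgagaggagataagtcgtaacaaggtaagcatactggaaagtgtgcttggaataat
mt-Rnr2: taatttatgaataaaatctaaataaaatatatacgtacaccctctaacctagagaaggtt

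Annotated copies of 7 mitochondrial protein genes, COX1 to ND4 without ATP8, lie next to each other on chromosome 1 in the mitochondrial order. The copy of COX1 starts within the gene and that of ND4 stops within it. The sequences below show both edges, bases 1037 to 1096 of COX1 and bases 847 to 906 of ND4. Capitals mark letters shared with Gm29216 (COX1) and Gm28439 (ND4). Lower case here marks only letters outside that copy.
COX1: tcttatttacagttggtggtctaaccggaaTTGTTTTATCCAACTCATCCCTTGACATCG
ND4: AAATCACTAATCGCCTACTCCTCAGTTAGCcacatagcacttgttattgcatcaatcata

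The letters of COX1 shared with Gm29216 ran from base 1067 to its last base, 1545. Those of ND4 shared with Gm28439 ran from base 1 to base 876, which left 502 bases at its 3' end outside the copy. All stretches of 50 bases in the last 300 bases of COX1 were shared (100%), against 0% for ND4. Over the whole gene, 51.1% of the stretches of COX1 and 62.2% of those of ND4 were shared. COX1 shared stretches with 3 other genes, so its letters before base 1067 are not all unshared. ND2 had 31.9% of these end stretches in common with Gm13339, a pseudogene on chromosome 2, and ND5 had 1.99% in common with others. ND1, ND6, CYTB, mt-Rnr1 and mt-Rnr2 had 0%.

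Of the 13 mitochondrial protein genes, 6 shared over 90% of the stretches in their last 300 bases with another transcript, and 4 of these 6 had 0 counts. ND3 was near 0, and COX1 went the other way, with 54700 counts. Of the 7 genes that shared 50% or less, 6 were counted and ATP8 was at 0, with no stretch shared with an annotated transcript. Letters between the annotated copies on chromosome 1 were not searched, so whether ATP8 occurs there was not tested. This comparison of sequences was made after the counts of 0 had been seen. It used the last 300 annotated bases of each gene, and where each poly(A) tail lies was not examined. The sources used here do not give how the authors' counting treated reads that map to more than 1 place, and its part in the counts of 0 was not tested. The copies themselves are not analysed here.

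**Figure D1:**
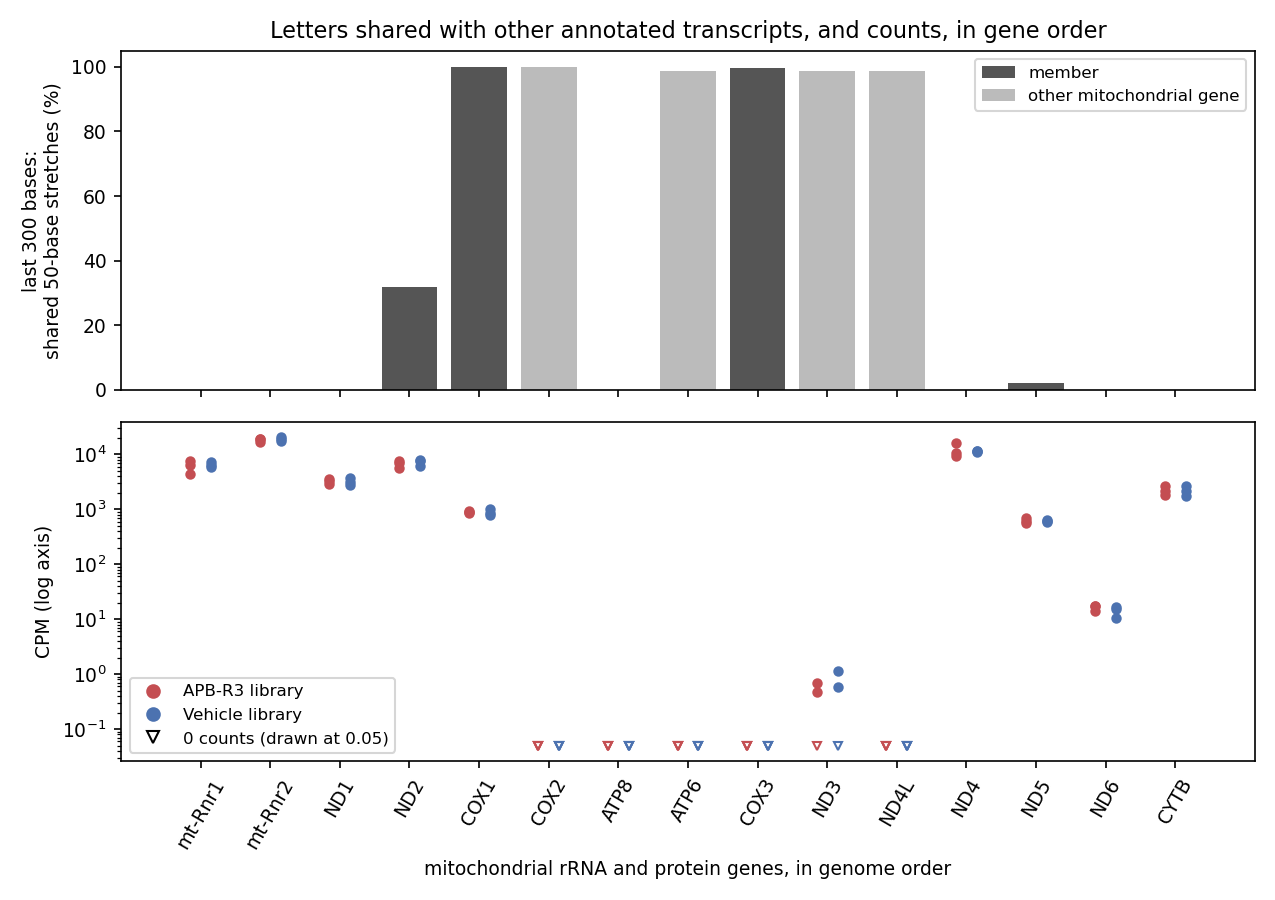
Upper panel: percentage of 50-base stretches in the last 300 bases of each mitochondrial rRNA and protein gene that occur in another annotated transcript, in genome order. Lower panel: CPM on a log axis for each APB-R3 (red) and Vehicle (blue) library, with triangles for libraries at 0 counts. COX2, ATP8, ATP6, COX3 and ND4L have 0 counts in all 6 libraries, and COX1, with 100% of its end stretches shared, has between 795 and 1031 CPM.

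Totals were between 8323809 and 10792531 counts per library. Over all genes, edgeR's quasi-likelihood test with Benjamini-Hochberg adjustment called 0 of 12776 genes, which is 0%, and 425 genes (3.33%) had an unadjusted p under 0.05. DESeq2 called 0 genes, with 432 at an unadjusted p under 0.05, and limma-voom 0, with 427. Whether replicates stem from different animals or cultures is not in the labels, and the p-values measure the spread between these libraries, which may be technical. In markers of the cell types that a preparation can hold, summed levels were 582 to 734 CPM in APB-R3 and 709 to 805 CPM in Vehicle libraries for 6 activated stellate genes, and 165 to 185 and 157 to 171 CPM for 9 quiescent stellate genes. They were 4962 to 5600 CPM in APB-R3 and 5191 to 5834 CPM in Vehicle libraries for 7 liver endothelial genes, 157 to 221 and 145 to 190 CPM for 6 macrophage genes, and 4.57 to 14.8 and 8.38 to 47.1 CPM for 6 hepatocyte genes. Endothelial markers thus summed to more than activated and quiescent stellate markers together in each library, and the median gene had 890 CPM in the endothelial list, 117 CPM in the activated and 10.1 CPM in the quiescent stellate list. No marker of these lists was at 0 over the 6 libraries, and the part of these cells in the mitochondrial values was not tested.

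The 10 genes together took 5.02%, 4.92% and 5.09% of the counts in APB-R3 replicates 1 to 3, against 4.97%, 4.84% and 5.50% in Vehicle replicates 1 to 3. The groups overlapped, with the highest and the lowest share both in Vehicle libraries. Means were 5.01 ± 0.0869% in APB-R3 and 5.10 ± 0.353% in Vehicle libraries (SD, n = 3 each), and an exact permutation test, two-sided, gave p = 0.9 for the difference of -0.0918 percentage points. With 3 libraries against 3 this test cannot go below 0.1. In such bulk libraries fewer cells of a type and less RNA per cell cannot be told apart.

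The protein genes and the rRNA genes divided this total about equally, except in APB-R3 replicate 1. The protein genes here are the members only, with COX3 at 0 and an uncertain COX1. The rRNA genes were counted through priming on poly(A) or internal runs of A. Their ratio is thus one of counts and does not give the balance of rRNA to mRNA in the cells. The protein genes took 2.93%, 2.37% and 2.41% in APB-R3 libraries, against 2.57%, 2.34% and 2.74% in Vehicle libraries (exact permutation p = 0.9, two-sided, n = 3 each). The rRNA genes took 2.09%, 2.55% and 2.69% in APB-R3 libraries, against 2.39%, 2.50% and 2.76% in Vehicle libraries (exact permutation p = 0.7, two-sided, n = 3 each). APB-R3 replicate 1 had the highest share of protein genes and the lowest share of rRNA genes of the 6. Its ratio of rRNA to protein gene counts was 0.716, beside 1.07 and 1.12 in the other APB-R3 libraries and 0.929, 1.07 and 1.01 in Vehicle libraries. The mean log2 ratio differed by -0.07 between APB-R3 and Vehicle (exact permutation p = 1.0, two-sided, n = 3 each).

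**Figure D2:**
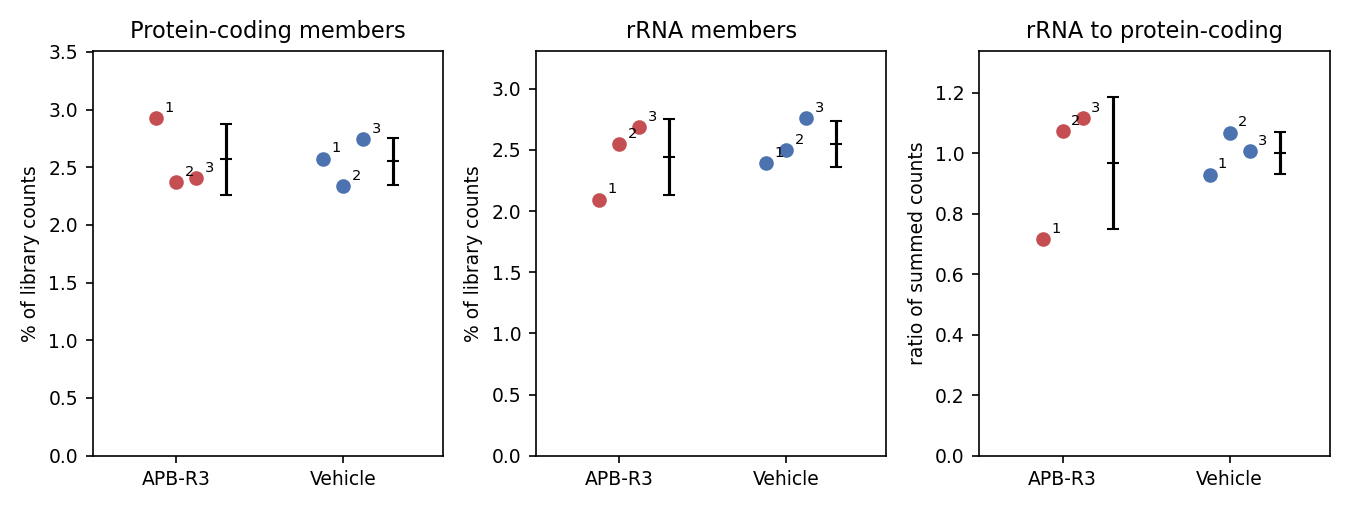
Percentage of library counts in the protein genes, and in the rRNA genes, and the ratio of rRNA to protein gene counts, for each APB-R3 (red) and Vehicle (blue) library, with the mean and SD of 3 libraries. The groups overlap in each panel, and APB-R3 replicate 1 has the lowest ratio, 0.716.

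Of the 10 genes, 9 had counts and were tested, and 0 of the 9 were called, beside 0% of all genes. The groups overlapped for each of the 9. They did not overlap for 1125 of all 12776 genes (8.81%), a share at which none of 9 genes is not unusual. In each of these 9 fits the adjusted p was 0.9998 (edgeR quasi-likelihood test, Benjamini-Hochberg).

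The rRNA genes give the backbone of the mitochondrial ribosome. mt-Rnr2, the 16S rRNA of the large subunit, had 16536, 18918 and 19112 CPM in APB-R3 libraries, against 17401, 19032 and 20421 CPM in Vehicle libraries. mt-Rnr1, the 12S rRNA of the small subunit, had 4409, 6535 and 7740 CPM in APB-R3 libraries, against 6514, 5946 and 7172 CPM in Vehicle libraries. APB-R3 replicate 1 was the lowest of the 6 libraries for both genes. The log2 fold change of APB-R3 over Vehicle was -0.06 ± 0.08 (SE) for mt-Rnr2 and -0.08 ± 0.13 for mt-Rnr1. Without APB-R3 replicate 1 that of mt-Rnr1 was 0.11, the opposite direction, and neither value was called. The ratio of mt-Rnr2 to mt-Rnr1 counts was 3.75, 2.89 and 2.47 in APB-R3 libraries, against 2.67, 3.20 and 2.85 in Vehicle libraries, so both the highest and the lowest ratio were in the APB-R3 group.

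Shares of the protein genes cover the members only, of which COX3 was at 0 and COX1 has an uncertain count. These shares do not describe all mitochondrial mRNAs. Among these members complex I, the NADH dehydrogenase that starts the respiratory chain, gave most of the counts, between 86.4% and 89.2% in each library. ND4, a proton-pumping subunit of its membrane arm, had 16055, 10572 and 9495 CPM in APB-R3 libraries, against 11457, 11211 and 11522 CPM in Vehicle libraries. The Vehicle libraries lay close together, and the APB-R3 libraries lay 1 above and 2 below them. The log2 fold change was 0.08 ± 0.13 (SE), with a 95% interval of -0.19 to 0.34. Without APB-R3 replicate 1 it was -0.20, with an unadjusted p of 0.0024 and an adjusted p of 0.9997 (edgeR quasi-likelihood test, Benjamini-Hochberg).

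ND2, another subunit of the membrane arm, had 5588, 6874 and 7524 CPM in APB-R3 libraries, against 7494, 6227 and 7827 CPM in Vehicle libraries. Its log2 fold change was -0.11 ± 0.10 (SE), and -0.01 when APB-R3 replicate 1 was left out, which held the lowest ND2. The ratio of ND4 to ND2 counts set that library apart, at 2.87 beside 1.54 and 1.26 in the other APB-R3 libraries and 1.53, 1.80 and 1.47 in Vehicle libraries. ND1, the subunit that helps form the quinone site, had 3585, 2950 and 3252 CPM in APB-R3 libraries, against 3130, 2833 and 3692 CPM in Vehicle libraries. The extremes of ND1 were both in Vehicle libraries, and its log2 fold change was 0.02 ± 0.09 (SE), or -0.07 without APB-R3 replicate 1.

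ND5, the largest of the membrane arm subunits, had 559, 615 and 703 CPM in APB-R3 libraries, against 608, 594 and 637 CPM in Vehicle libraries. Its extremes were both in APB-R3 libraries, and the log2 fold change was 0.02 ± 0.09 (SE), or 0.09 without APB-R3 replicate 1. It was -0.06 when APB-R3 replicate 3 was left out. ND6 had 14.3, 17.7 and 17.2 CPM in APB-R3 libraries, against 15.1, 10.7 and 16.6 CPM in Vehicle libraries. Its log2 fold change was 0.22 ± 0.20 (SE), with a 95% interval of -0.20 to 0.63 on 113 to 191 counts per library. Without Vehicle replicate 2, the lowest library, it was 0.06, and without Vehicle replicate 3 it was 0.34.

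CYTB, the subunit of complex III that carries its haems b, had 2608, 1797 and 2135 CPM in APB-R3 libraries, against 2168, 1722 and 2711 CPM in Vehicle libraries. Each group held low and high libraries, and the log2 fold change was -0.02 ± 0.13 (SE), or -0.17 without APB-R3 replicate 1, -0.16 without Vehicle replicate 2 and 0.16 without Vehicle replicate 3. COX1, the catalytic subunit of complex IV, had 845, 910 and 941 CPM in APB-R3 libraries, against 874, 795 and 1031 CPM in Vehicle libraries. Its log2 fold change was -0.01 ± 0.09 (SE), or 0.03 without APB-R3 replicate 1, and since its 3' end is shared with nuclear copies its count is uncertain.

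**Figure D3:**
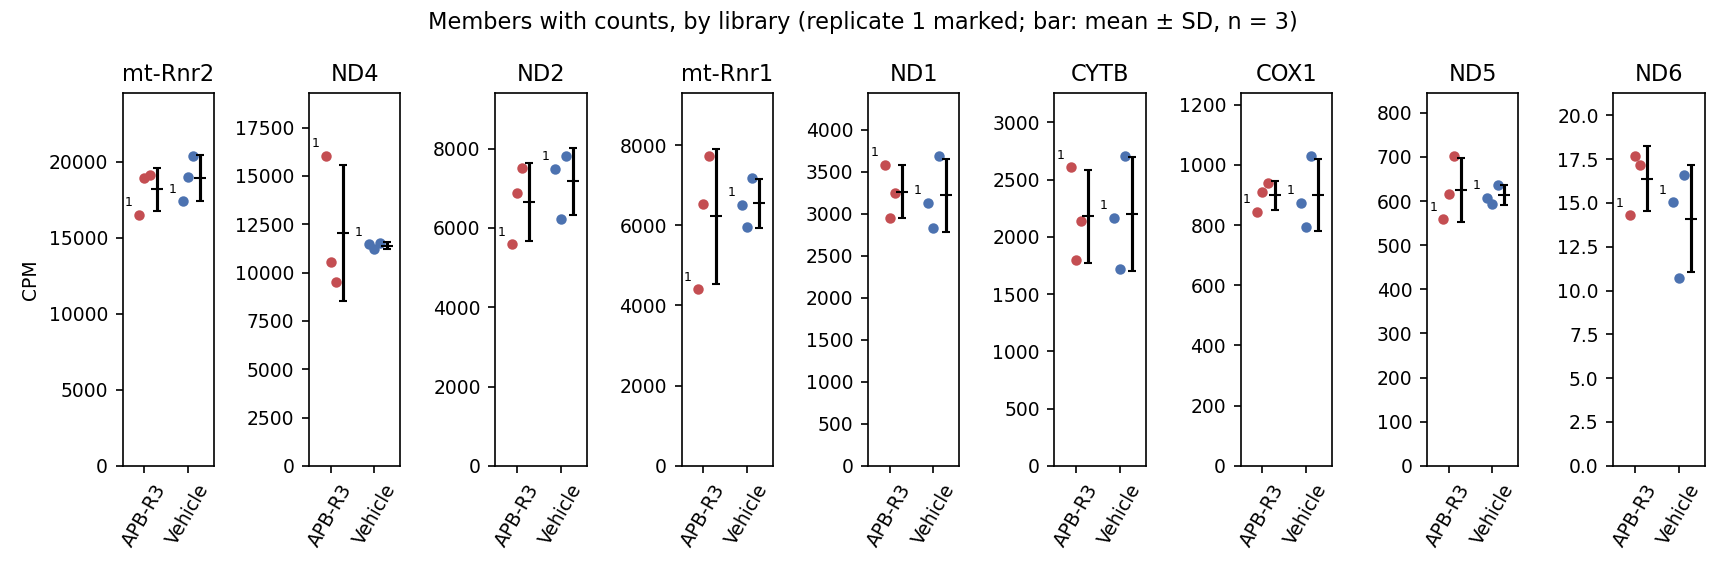
CPM of the 9 genes with counts in each APB-R3 (red) and Vehicle (blue) library, with bars for the mean ± SD of 3 libraries and replicate 1 of each group marked. The groups overlap in each panel, and APB-R3 replicate 1 is the highest of the 6 libraries for ND4 and the lowest for ND2, ND5, mt-Rnr1 and mt-Rnr2.

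APB-R3 replicate 1 also stood at an extreme for many other genes. It was the highest or the lowest of the 6 libraries for 41.1% of the genes tested, beside 26.1% to 37.8% for each of the other 5. It also had the smallest total, 8323809 counts. What set it apart was not tested.

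**Figure D4:**
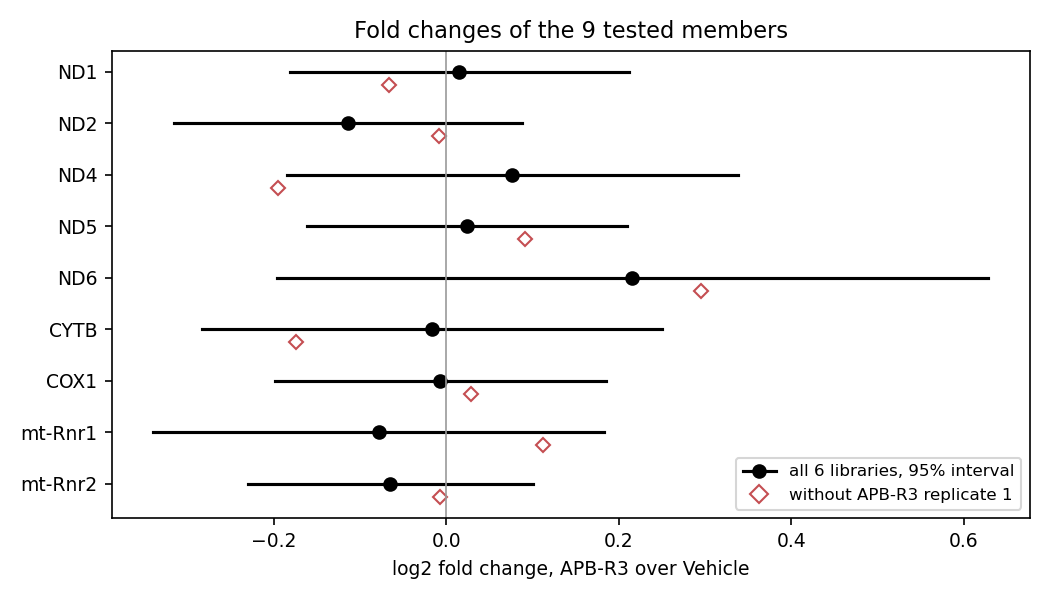
Log2 fold change of APB-R3 over Vehicle for the 9 genes with counts, from all 6 libraries with 95% intervals, and without APB-R3 replicate 1 as points with no interval. The values for ND1 (0.02 and -0.07), ND4 (0.08 and -0.20), COX1 (-0.01 and 0.03) and mt-Rnr1 (-0.08 and 0.11) lie on opposite sides of 0.

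Per kilobase of transcript and averaged over the 6 libraries, mt-Rnr2 was the highest at 11738 CPM per kb, followed by ND4 at 8504, mt-Rnr1 at 6687 and ND2 at 6669 CPM per kb. The ranges of these neighbours overlapped, with mt-Rnr2 above ND4 in 5 of 6 libraries and mt-Rnr1 above ND2 in 3. Below them came ND1 at 3386, CYTB at 1915, COX1 at 582, ND5 at 340 and ND6 at 29.4 CPM per kb, and each of these neighbours kept its order in 6 of 6 libraries. A 3' end count does not grow with length, so this division lowers long genes relative to short ones. Counts of different genes also depend on how each transcript is primed on poly(A), and the count of COX1 is uncertain. The order is thus one of counts and need not be that of transcript levels. On plain CPM ND2 (6922) was above mt-Rnr1 (6386), and the rest of the order was the same.

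Some of these genes varied more between libraries than other abundant genes did. The highest CPM was 1.76 times the lowest for mt-Rnr1, 1.69 times for ND4 and 1.57 times for CYTB. The median over 251 other genes with at least 500 CPM was 1.19 times. For mt-Rnr1 and ND4 much of this came from APB-R3 replicate 1, at 4409 and 16055 CPM. The other libraries lay between 5946 and 7740 CPM for mt-Rnr1 and between 9495 and 11522 CPM for ND4. ND2 varied 1.40 times, ND1 and COX1 1.30 times, ND5 1.26 times and mt-Rnr2 1.23 times. The extremes for ND1, CYTB and COX1 were both in Vehicle libraries, and those for mt-Rnr1, ND4 and ND5 both in APB-R3 libraries.

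The mitochondrial tRNA genes gave 2724 counts in all over 22 genes. At 0 were 8 of them, TrnN, TrnY, TrnS1, TrnD, TrnK, TrnG, TrnR and TrnH. A further 7 had between 1 and 39 counts over the 6 libraries and were not tested, namely TrnF, TrnL1, TrnW, TrnC, TrnS2, TrnL2 and TrnE. The groups overlapped for 5 of the 7 tested tRNA genes and did not for TrnM and TrnQ, beside 8.81% of all genes. TrnM, the methionine tRNA, had 19.7, 21.5 and 19.0 CPM in APB-R3 libraries, against 17.2, 16.4 and 18.6 CPM in Vehicle libraries. TrnQ, the glutamine tRNA, had 5.29, 4.17 and 4.47 CPM in APB-R3 libraries, against 7.48, 8.23 and 6.76 CPM in Vehicle libraries. Each APB-R3 library was higher for TrnM, as for 4.43% of all genes, and lower for TrnQ, as for 4.38%. The log2 fold change was 0.20 ± 0.17 (SE) for TrnM and -0.70 ± 0.29 (SE) for TrnQ, both with an adjusted p of 0.9998 (edgeR quasi-likelihood test, Benjamini-Hochberg). Among the others, TrnT averaged 9.57 ± 1.67 CPM in APB-R3 and 7.10 ± 2.18 CPM in Vehicle libraries (SD, n = 3 each), and TrnI 3.65 ± 0.750 and 4.62 ± 2.09 CPM. TrnP averaged 3.35 ± 1.24 CPM in APB-R3 and 3.14 ± 1.63 CPM in Vehicle libraries, TrnV 1.26 ± 0.643 and 1.52 ± 0.942 CPM, and TrnA 0.846 ± 0.527 and 1.02 ± 0.148 CPM. TrnQ is read from the strand opposite to its neighbours TrnI and TrnM, and the sources used here do not give the strand setting of the counting.

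Nuclear genes were taken as 10 lists with 199 tested genes. They cover mitochondrial transcription, RNA processing, RNA decay, rRNA modification and ribosome assembly, ribosomal proteins, translation factors, DNA replication, partners in complexes I, III and IV, regulators of biogenesis and general markers of mitochondrial mass. Of the 199, 0 were called, beside 0% of all genes. With all libraries 135 had a log2 fold change above 0 and 64 below it, with a median of 0.07, beside 6481 above, 6295 below and a median of 0.00 over all genes tested. Without APB-R3 replicate 1, 110 of the same 199 genes were above 0 and 89 below, with a median of 0.032. An unadjusted p under 0.05 was found for 5 of the 199, beside 3.33% of all genes, and the groups did not overlap for 16, beside 8.81%. No test was run over a list, and the genes of a list are not independent of each other. The genes named below include the one with the smallest p of each list, which was picked on these same data.

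Transcription of the mitochondrial genome had 4 of 8 genes above 0 and a median log2 fold change of -0.02, which lay between -0.04 and 0.04 with each library left out. TFAM packages and bends the mitochondrial DNA at its promoters, and Tfam averaged 30.3 ± 3.99 CPM in APB-R3 and 29.3 ± 4.36 CPM in Vehicle libraries (SD, n = 3 each). Mrpl12, a ribosomal protein that also binds POLRMT, averaged 72.1 ± 2.36 CPM in APB-R3 and 65.5 ± 5.94 CPM in Vehicle libraries. Tfb2m, the factor that opens the promoter, had a log2 fold change of 0.42 ± 0.24 (SE), or 0.24 without APB-R3 replicate 3, 0.25 without Vehicle replicate 2 and 0.64 without Vehicle replicate 3.

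RNA processing and stability had 13 of 18 genes above 0 and a median of 0.10, or 0.15 without Vehicle replicate 1 and 0.20 without Vehicle replicate 2. LRPPRC and SLIRP form a complex that protects mitochondrial mRNAs, and Lrpprc averaged 168 ± 52.1 CPM in APB-R3 and 157 ± 18.9 CPM in Vehicle libraries. Slirp averaged 74.3 ± 6.14 CPM in APB-R3 and 63.7 ± 6.58 CPM in Vehicle libraries. Elac2, the nuclease that cuts the 3' ends of tRNAs, had 12.1, 10.01 and 12.3 CPM in APB-R3 libraries, against 5.46, 9.46 and 6.76 CPM in Vehicle libraries, and its log2 fold change was 0.66 ± 0.25 (SE). RNA decay had 0 of 3 genes above 0 and a median of -0.14, or -0.059 without APB-R3 replicate 2 and -0.069 without Vehicle replicate 1. Supv3l1, the helicase of the mitochondrial degradosome, averaged 20.5 ± 4.64 CPM in APB-R3 and 22.8 ± 2.81 CPM in Vehicle libraries, and Rexo2, an exonuclease for short RNAs, averaged 211 ± 10.4 and 221 ± 14.8 CPM.

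Modification of rRNA and assembly of the mitochondrial ribosome had 17 of 23 genes above 0 and a median of 0.11, or 0.069 without Vehicle replicate 3. Ddx28, an RNA helicase of large subunit assembly, had 22.3, 22.7 and 18.9 CPM in APB-R3 libraries, against 12.2, 12.7 and 14.8 CPM in Vehicle libraries. Each APB-R3 library was above each Vehicle library for Ddx28, as for 4.43% of all genes. Ddx28 is named because it has the smallest p of its list. Its log2 fold change was 0.69 ± 0.18 (SE), with an unadjusted p of 0.00092 and an adjusted p of 0.9998 (edgeR quasi-likelihood test, Benjamini-Hochberg). Dhx30, another helicase of ribosome assembly, averaged 49.2 ± 1.79 CPM in APB-R3 and 42.3 ± 4.03 CPM in Vehicle libraries, and Rbfa, a small subunit assembly factor, 31.0 ± 3.30 and 33.4 ± 5.10 CPM. The mitochondrial ribosomal proteins had 55 of 77 genes above 0 and a median of 0.06. Without APB-R3 replicate 1, 41 of the 77 were above 0 with a median of 0.016, and without APB-R3 replicate 3 the median was 0.10. Mrpl34 averaged 156 ± 10.2 CPM in APB-R3 and 149 ± 5.76 CPM in Vehicle libraries, Mrps6 117 ± 17.6 and 103 ± 8.53 CPM, and Mrpl1 had a log2 fold change of -0.32 ± 0.16 (SE), or -0.20 without Vehicle replicate 2.

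The translation factors had 6 of 12 genes above 0 and a median of 0.02, or -0.035 without APB-R3 replicate 1. It was 0.078 when APB-R3 replicate 3 was left out. Mrrf, which recycles the ribosome, averaged 48.6 ± 1.77 CPM in APB-R3 and 50.4 ± 5.30 CPM in Vehicle libraries. Mtif2, an initiation factor, averaged 44.4 ± 2.63 CPM in APB-R3 and 38.7 ± 1.995 CPM in Vehicle libraries, and Tsfm, an elongation factor, had a log2 fold change of 0.42 ± 0.22 (SE), or 0.25 without Vehicle replicate 2. Replication of the mitochondrial DNA had 9 of 14 genes above 0 and a median of 0.06. Without APB-R3 replicate 1, 6 of the 14 were above 0 with a median of -0.017. The median was 0.020 without Vehicle replicate 3 and 0.09 without APB-R3 replicate 2. Polg, the catalytic subunit of its polymerase, averaged 32.3 ± 2.15 CPM in APB-R3 and 30.4 ± 0.977 CPM in Vehicle libraries, and Dguok, a nucleoside kinase, 32.9 ± 5.28 and 30.1 ± 5.42 CPM. Ssbp1, which coats single-stranded DNA, had 36.3, 21.8 and 24.1 CPM in APB-R3 libraries, against 17.9, 21.3 and 17.9 CPM in Vehicle libraries. Its log2 fold change was 0.51 ± 0.18 (SE), or 0.26 without APB-R3 replicate 1.

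The nuclear partners of complexes I, III and IV had 19 of 26 genes above 0 and a median of 0.04, or 0.06 without APB-R3 replicate 1 or Vehicle replicate 2 and 0.018 without Vehicle replicate 3. Cox6a1 and Cox6c are nuclear subunits of complex IV. Cox6a1 averaged 528 ± 51.4 CPM in APB-R3 and 517 ± 18.3 CPM in Vehicle libraries, and Cox6c 445 ± 21.0 and 420 ± 14.9 CPM. Ndufs8, an iron-sulfur subunit of complex I, had a log2 fold change of 0.34 ± 0.13 (SE), or 0.19 without APB-R3 replicate 2. The regulators of mitochondrial biogenesis had 5 of 8 genes above 0 and a median of 0.13, or 0.085 without Vehicle replicate 1. Yy1 and Gabpb1 are transcription factors of this group. Yy1 averaged 182 ± 20.7 CPM in APB-R3 and 192 ± 9.003 CPM in Vehicle libraries, and Gabpb1 34.6 ± 1.68 and 31.2 ± 4.73 CPM. Ppargc1b, a coactivator, had a log2 fold change of 0.39 ± 0.23 (SE), or 0.09 without APB-R3 replicate 3.

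General markers of mitochondrial mass had 7 of 10 tested genes above 0 and a median of 0.07. Without APB-R3 replicate 1, 4 of the 10 were above 0 with a median of -0.015, and the median was 0.019 without Vehicle replicate 2 and 0.11 without Vehicle replicate 1. Vdac2, a channel of the outer membrane, averaged 376 ± 34.5 CPM in APB-R3 and 351 ± 19.5 CPM in Vehicle libraries, and Vdac1, a related channel, 156 ± 8.07 and 155 ± 12.4 CPM. Tomm20, a receptor for imported proteins, had 15.5, 15.5 and 15.1 CPM in APB-R3 libraries, against 18.6, 18.4 and 17.8 CPM in Vehicle libraries. Each APB-R3 library was below each Vehicle library for Tomm20, as for 4.38% of all genes, and its log2 fold change was -0.26 ± 0.17 (SE). For each gene named from these lists the adjusted p was 0.9998 (edgeR quasi-likelihood test, Benjamini-Hochberg).

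**Figure D5:**
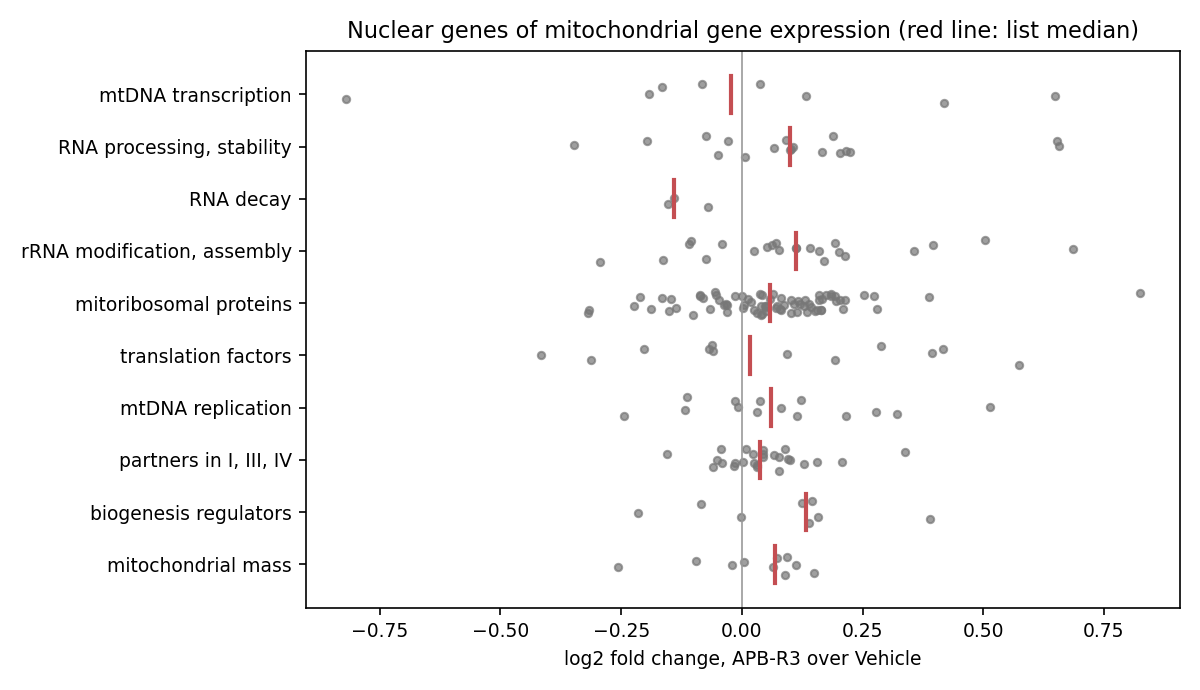
Log2 fold change of APB-R3 over Vehicle for each tested gene of the 10 nuclear lists (points), with the median of each list (line). With all 6 libraries medians lie between -0.14 for RNA decay and 0.13 for regulators of biogenesis, and 0 genes were called. Each median moves when a library is left out, and those of translation factors, replication and mass fall below 0 without APB-R3 replicate 1.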

How the data were processed

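The deposited files hold whole-number counts of reads per gene symbol for 6 libraries, not normalized. Per the labels' protocols, RNA was extracted with Trizol and 500 ng went into each QuantSeq library. Per the submitters' processing notes, the authors used bcl2fastq 2.20.0.422, fastp, STAR and HTSeq with GRCm39. For the last 3 the sources used here give no version, and they give no annotation release, strand setting or treatment of molecular identifiers, so floors cover counting error only. The number in the header inside each file differs from that in the title, and titles were used.

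Libraries were compared with edgeR 4.0.16 in R 4.3.3 (filterByExpr defaults, which need a count of 10 and a total of 15, then TMM scaling, glmQLFit and glmQLFTest, treatment as the only term), two-sided, with Benjamini-Hochberg adjustment over 12776 genes and a threshold of 0.05. SE is the log2 fold change divided by √F. Levels are CPM on plain library totals. Single values per library were compared by exact permutation in SciPy 1.17.1. The common biological coefficient of variation was 0.145. The fit was tested on simulated data with 200 of 12776 genes changed. It called 4% of the changed genes at 1.25-fold, 39.5% at 1.5-fold and 64.5% at 2-fold. Unchanged genes called were 2, 2 and 3. Any pair of libraries differed by a chi-square of at least 5.54 per degree of freedom, so none was a copy. Alternatives were other scalings and filters, DESeq2 1.42.0, limma-voom 3.58.1, a replicate block and each library left out.

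Genes named are all 10 members, the other mitochondrial symbols (as counts or by name, with levels for the 7 tested tRNA genes), and for each nuclear list the pair with the highest mean CPM and the gene with the smallest p, besides the genes most like the members. The members and lists were chosen with earlier results of these data known. Shared letters were found by exact stretches of 50 bases on either strand in GENCODE M21 transcripts (GRCm38), and 75 and 100 bases gave the same 6 genes over 90%. Gene order is that of RefSeq for GRCm38.p6, and no coordinates are given.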

Additional observations from a re-analysis of the deposited data

How the results depend on the processing

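Of the 9 members tested, 0 were called under any of 15 alternatives. Over all genes, 0 were called in all settings other than no low-count filter, which called 20 of 20496, and leaving out Vehicle replicate 3, which called 1 (range 0 to 1 over the libraries left out). Of 135 alternative values of the members, 12 reversed. COX1 was 5.13e-05 with limma-voom. With each library left out, log2 fold changes ran from -0.066 to 0.12 for ND1, -0.20 to 0.23 for ND4, -0.055 to 0.092 for ND5, -0.17 to 0.16 for CYTB, -0.079 to 0.10 for COX1 and -0.25 to 0.11 for mt-Rnr1, while ND2, ND6 and mt-Rnr2 kept their direction, ND6 at values from 0.060 to 0.34. Supv3l1 ran from -0.33 to 0.019, TrnA from -0.58 to 0.16, TrnI from -0.58 to 0.090, TrnP from -0.13 to 0.62 and TrnV from -0.65 to 0.28. TrnP was -0.046 with counts thinned to the smallest library. Over the same 199 nuclear genes, 110 to 140 were above 0. Differences in share ran from -0.162 to 0.114 percentage points for protein genes, -0.230 to 0.0657 for rRNA genes and -0.224 to 0.109 for all 10, and the log2 ratio from -0.19 to 0.13. The cause was not tested. Same-numbered libraries of the groups had deviations that correlated at 0.0295, 0.0365 and 0.0579, and those of different number at -0.0377 to -0.00542. Same-numbered libraries were thus more alike, though weakly, and the labels name no pairing. Deviations were taken from the mean of each group, so the negative values follow from the positive ones and add nothing to this. The main fit did not take the numbers as pairs. With a replicate block 0 genes were called, with 539 at an unadjusted p under 0.05, beside 425 without it (edgeR quasi-likelihood test). Ddx28 then had an adjusted p of 0.37 (same test, Benjamini-Hochberg). With 3 libraries in each group and totals from 8323809 to 10792531 counts, the 95% intervals of the members bound what differences could be seen.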

Other observations

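Genes whose log2 CPM over the 6 libraries ran most alike with the summed protein genes, among 3815 genes with at least 50 CPM, were Cebpz (Pearson r 0.989), Ywhaz (0.987), Pak1ip1 (0.984), Cfl1 (0.979) and Me2 (0.978). With the summed rRNA genes they were Usp3 and Ro60 (0.990 each), Mylip (0.989), Pcm1 (0.987) and Fabp5 (0.986). These are the highest of 3815 values over 6 points that share library and depth, and are given as a description.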
